A study of Mus musculus with 48 samples.

Results

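The genes described are 8 aquaporins and aquaglyceroporins, Aqp1, Aqp3, Aqp4, Aqp5, Aqp7, Aqp8, Aqp9 and Aqp11. They were taken by symbol from the 56748 Ensembl identifiers of the count files, and all 8 were matched. RNA was sequenced from liver, brown adipose tissue (BAT) and white adipose tissue of the epididymal depot (eWAT), taken from male mice lacking angiotensinogen (Agt) in hepatocytes (hepAGT-/-, here KO) and of hepAGT+/+ littermates (here WT). The allele design and the Cre driver are not given in the sources used here. All mice, controls included, were fed for 12 weeks on a Western diet, TD.88137, which holds 0.2% cholesterol and 21% milk fat. They were housed at 20 to 22 °C (room temperature, RT) or at 30 °C (thermoneutrality, TN). Each of the 12 groups of tissue, genotype and housing had 4 libraries, named by the replicate numbers of the labels. Ages are not given in the sources used here.

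Aquaporins are membrane channels that let water cross cell membranes along an osmotic gradient. The aquaglyceroporins of the family, Aqp3, Aqp7 and Aqp9 among those described, also pass glycerol and other small neutral solutes. Aqp7 is the main glycerol channel of adipocytes, through which glycerol freed by lipolysis leaves the cell, and Aqp9 is the main glycerol channel of hepatocytes, which take glycerol up to make glucose and triglyceride. Of the water channels, Aqp1 is found in endothelium, red blood cells, kidney and bile duct cells. Aqp8 is found in hepatocytes and pancreas, Aqp5 in salivary, lacrimal and sweat glands and lung, and Aqp4 in astrocyte end feet and fast skeletal muscle fibres. Aqp11 is a divergent member of the endoplasmic reticulum membrane.

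Positions are those of GENCODE vM21 on GRCm38, a build named in the submitters' processing notes, and 8.24% of the identifiers in the files are not in that annotation. The aquaglyceroporins Aqp3 (ENSMUSG00000028435, chromosome 4, 41092722 to 41098183) and Aqp7 (ENSMUSG00000028427, chromosome 4, 41033074 to 41048139) lie close together on the minus strand. Aqp9 (ENSMUSG00000032204, minus strand) lies on chromosome 9 from 71110659 to 71168682. The gene Aqp1 (ENSMUSG00000004655, plus strand) lies on chromosome 6 from 55336432 to 55348555. Both Aqp8 (ENSMUSG00000030762, 123462291 to 123468004, plus strand) and Aqp11 (ENSMUSG00000042797, 97724006 to 97738289, minus strand) are on chromosome 7. Aqp5 (ENSMUSG00000044217, plus strand) lies on chromosome 15 from 99590782 to 99594829. All 8 are annotated as protein coding, and the counts are for whole genes. Aqp9 overlaps 2 annotated genes of the opposite strand, Gm47268 and Gm32511. Whether counting used strand is not given in the sources used here, so reads of such partners cannot be told apart from those of Aqp9.

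Aqp7 and Aqp1 were the members that rose in BAT at TN, and their promoters are shown for that reason. Each run is a RefSeq window on GRCm38.p6 from 250 bases before to 50 bases after an annotated start, written 5′ to 3′ on the strand of the gene. Capitals mark AGGTCA or its reverse complement TGACCT, the half-site of many nuclear receptors, among them PPARγ, for which Aqp7 is a known target in adipocytes.
Aqp7, chr4:41047913-41048212, minus strand: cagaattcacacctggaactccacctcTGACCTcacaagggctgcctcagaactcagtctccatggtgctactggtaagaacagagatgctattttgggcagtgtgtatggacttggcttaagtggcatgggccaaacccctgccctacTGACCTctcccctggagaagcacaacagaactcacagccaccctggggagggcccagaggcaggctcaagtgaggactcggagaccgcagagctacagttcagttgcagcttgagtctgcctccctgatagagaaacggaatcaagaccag
Aqp1, chr6:55336049-55336348, plus strand: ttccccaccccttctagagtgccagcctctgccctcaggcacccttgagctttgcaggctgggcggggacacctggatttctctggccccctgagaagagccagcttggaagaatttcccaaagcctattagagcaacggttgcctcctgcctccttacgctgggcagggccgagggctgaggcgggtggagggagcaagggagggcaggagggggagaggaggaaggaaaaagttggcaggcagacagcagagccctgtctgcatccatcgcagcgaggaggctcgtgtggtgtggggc
The Aqp7 window shown held TGACCT at 223 and 101 bases before the start. Another Aqp7 window, chr4:41048087-41048386, overlaps it and is not shown. That window held TGACCT once, at 49 bases before its own start, which is the same site as that at 223. The Aqp7 windows are therefore not independent in the count of windows given below. The Aqp1 window did not hold those letters. On both strands the half-site was in 16.3% of the 32851 promoter windows of that length, and in 3 of 9 windows found for 7 of the members, namely both Aqp7 windows and that of Aqp11. These are matches of letters, and no factor was measured.

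Total counts per library ran from 23711728 to 36503849 in liver, from 25304872 to 39383039 in BAT and from 28656921 to 43687848 in eWAT. Levels are CPM, counts scaled by TMM to a common library size within a tissue. Called means an adjusted p under 0.05 in edgeR's quasi-likelihood test, with Benjamini-Hochberg adjustment across every gene of the fit. Replicate numbers are labelled as biological, and p-values measure the spread between these libraries. The targeted gene, Agt, was lower in KO than in WT liver at RT (167 ± 26.8 against 368 ± 75.5 CPM, SD, n = 4) and at TN (167 ± 33.8 against 410 ± 86.5 CPM), without overlap. KO liver thus kept Agt transcripts. In eWAT the mean of Agt was higher in KO than in WT. It was 156.7 ± 30.36 against 92.35 ± 25.67 CPM at RT and 170.5 ± 44.05 against 65.89 ± 51.27 CPM at TN. Summed brown adipocyte markers were 2637 CPM or more in every BAT library and at most 20.5 CPM in eWAT. Libraries of fat also held transcripts of other tissues, with summed skeletal muscle markers of 1.19 to 6294 CPM in BAT, summed hepatocyte markers of up to 2251 CPM in BAT and 4189 CPM in eWAT, and summed epididymis markers of 882 CPM in 1 eWAT library (WT RT replicate 18).

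Liver and fat differed in their leading aquaporins. Liver held Aqp9, Aqp8, Aqp1, Aqp11 and Aqp4, while both fat depots held mainly Aqp1 and Aqp7. Per kilobase of exon, which allows genes to be compared, liver levels were 109.9 CPM for Aqp9, 82.4 for Aqp8, 26.3 for Aqp1, 4.35 for Aqp11 and 2.37 for Aqp4 as means over 16 libraries. On the same scale BAT had 161.5 CPM of Aqp1 and 76.7 CPM of Aqp7, and eWAT had 81.1 CPM of Aqp1, 55.0 CPM of Aqp7 and 1.90 CPM of Aqp9. All other members stayed under 1 CPM per kilobase on average in fat. At its highest, Aqp3 reached 0.458 CPM (not per length), in 1 eWAT library, and it passed the filter on low counts in no fit.

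**Figure D1:**
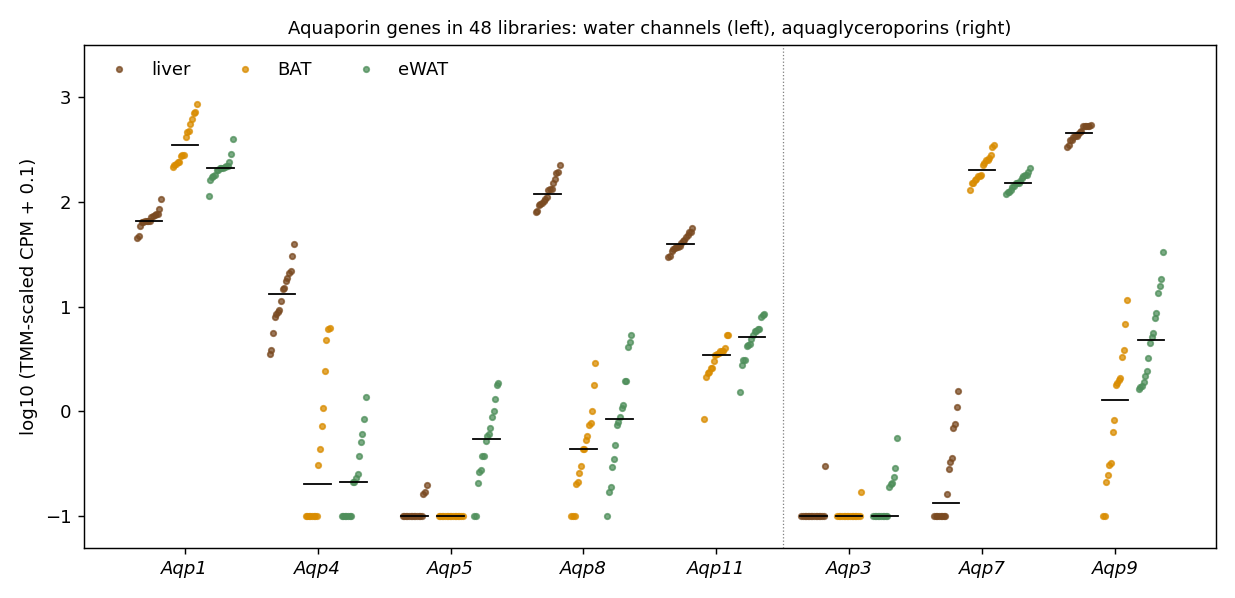
Levels of the 8 genes in the 48 libraries, as log10 of CPM (TMM-scaled within a tissue) with 0.1 added, points being libraries and bars medians of 16 libraries. Aqp8, Aqp9, Aqp11 and Aqp4 are highest in liver, Aqp1 and Aqp7 in fat, and Aqp3 and Aqp5 lie at or near 0.

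Aqp9 ran from 337 to 543 CPM over the 16 liver libraries (median 452), from 1.55 to 33.1 CPM in eWAT (median 4.72) and from 0 to 11.6 CPM in BAT (median 1.20). No fat library came near the lowest liver library. Aqp7 went the other way, with 118 to 210.5 CPM in eWAT (median 151), 130.2 to 352 CPM in BAT (median 202) and at most 1.46 CPM in liver, where 8 of 16 libraries had no count. The limit that a count of 0 allows is 0.138 CPM in the shallowest liver library, taking 3 counts and counting error only. Aqp1 was found in all tissues, at 45.0 to 107 CPM in liver, 114 to 396 CPM in eWAT and 214 to 860.2 CPM in BAT. Aqp8 ran from 79.8 to 225 CPM in liver and reached 5.23 CPM in eWAT and 2.79 CPM in BAT. Levels of Aqp11 were 29.7 to 56.3 CPM in liver, 1.44 to 8.49 CPM in eWAT and 0.753 to 5.28 CPM in BAT. The fat depots overlapped for Aqp8, Aqp9 and Aqp11, and liver stood above them for each, also on a common scaling. Scaling over all 48 libraries, which the tissue tests use, multiplied liver levels by 1.16 on average, BAT levels by 1.07 and eWAT levels by 0.804.

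The tissues were compared in 1 edgeR fit over all 48 libraries, in which Aqp3 could not be tested. Between liver and eWAT, 7 of the 7 members tested were called, in a comparison that called 73.8% of all genes. Between liver and BAT it was 6 of 7, against 68.6% of all genes, and between BAT and eWAT 4 of 7, against 60.3%. Both counts against eWAT include Aqp5, which passed the filter on low counts through eWAT alone, where it was highest. Its calls are therefore no independent evidence of a difference. Liver exceeded eWAT in Aqp8 by a log2 change of 7.19 (SE 0.51, adjusted p 2.05e-15), in Aqp9 by 6.57 (SE 0.62), in Aqp4 by 6.38 (SE 0.78) and in Aqp11 by 3.61 (SE 0.16). Liver was below eWAT in Aqp1 by a log2 change of -1.08 (SE 0.13). On the common scaling of that test the libraries overlapped, at 50.4 to 122 CPM in liver and 90.9 to 309 CPM in eWAT. BAT exceeded eWAT in Aqp1 by 1.31 (SE 0.13, adjusted p 7.07e-12) and in Aqp7 by 0.84 (SE 0.22, adjusted p 0.00111), although single libraries of the depots overlapped for both. Aqp9 was lower in BAT than in eWAT by a log2 change of -1.43 (SE 0.52, adjusted p 0.018). With the replicate number as a block that call was lost (-1.26, adjusted p 0.213). For Aqp8 (-1.13, SE 0.55, adjusted p 0.072) and Aqp11 (-0.22, SE 0.15, adjusted p 0.211) the depots did not differ by this test. Aqp5, the gland channel, had counts in 14 of 16 eWAT libraries (up to 1.77 CPM) and in none of the 16 BAT libraries. On the common scaling Aqp5 ran from 0 to 1.42 CPM in eWAT (mean 0.472, SD 0.452, n = 16). In the BAT library where they weigh most, 3 counts would give 0.168 CPM. Libraries of the depots overlapped, since some in eWAT also had no count.

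Of the 6 members tested in BAT, Aqp7 and Aqp1 were called higher at TN in both genotypes. In WT mice 2 of 6 members were called, in a comparison that called 32.5% of all genes (15.9% higher). In KO mice it was again 2 of 6, where 15.2% of all genes were called (6.64% higher). The WT count is near the share of all genes, so it says nothing particular to the members. In KO the call of Aqp1 depended on single libraries, as given below. The median change of all genes tested in BAT at TN was 0.11 on the log2 scale in WT and 0.04 in KO.

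In BAT of WT mice at RT, Aqp7 was 130.2, 179.5, 151 and 161 CPM in replicates 12, 15, 17 and 18. At TN it was 278, 248, 235 and 251 CPM in WT replicates 24, 6, 7 and 1. The lowest TN library lay above the highest RT library, and the log2 change was 0.70 (SE 0.15, adjusted p 0.0019). In KO mice Aqp7 was 176, 153, 163 and 178 CPM at RT in replicates 10, 14, 19 and 9. It was 225, 260.2, 330.1 and 352 CPM at TN in replicates 2, 3, 4 and 5. Here too the groups did not overlap, and the log2 change reached 0.80 (adjusted p 0.00173, SE 0.15). The interaction of genotype and housing was 0.10 (SE 0.22, adjusted p 0.899). Aqp7 was called in BAT of both genotypes with each of the 16 libraries left out in turn, with adjusted p of at most 0.0486 in KO over all alternatives tried.

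The vascular water channel Aqp1 was 238, 226, 228 and 214 CPM in BAT of WT mice at RT (replicates 12, 15, 17 and 18). At TN it was 279, 621, 554 and 860.2 CPM (replicates 24, 6, 7 and 1). The TN libraries were all above the RT libraries and spread far more widely, with replicate 24 lowest and replicate 1 highest. The log2 change was 1.35 (SE 0.28, adjusted p 0.0015). In KO mice the values were 239.6, 272, 279 and 465 CPM at RT (replicates 10, 14, 19 and 9), and 709, 416.5, 716.5 and 470.5 CPM at TN (replicates 2, 3, 4 and 5). One RT library, replicate 9, reached into the TN range, and the log2 change was 0.88 (SE 0.28, adjusted p 0.0404). That call was lost when any one of 8 libraries was left out, namely KO RT replicate 10, 14 or 19, WT RT replicate 15, 17 or 18, or KO TN replicate 2 or 4 (log2 change 0.77 to 0.88, adjusted p 0.0506 to 0.124). At RT the KO libraries lay just above the WT libraries (239.6 CPM or more against 238 CPM or less), with a log2 change of 0.47 that was not called (SE 0.28, adjusted p 0.364).

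**Figure D2:**
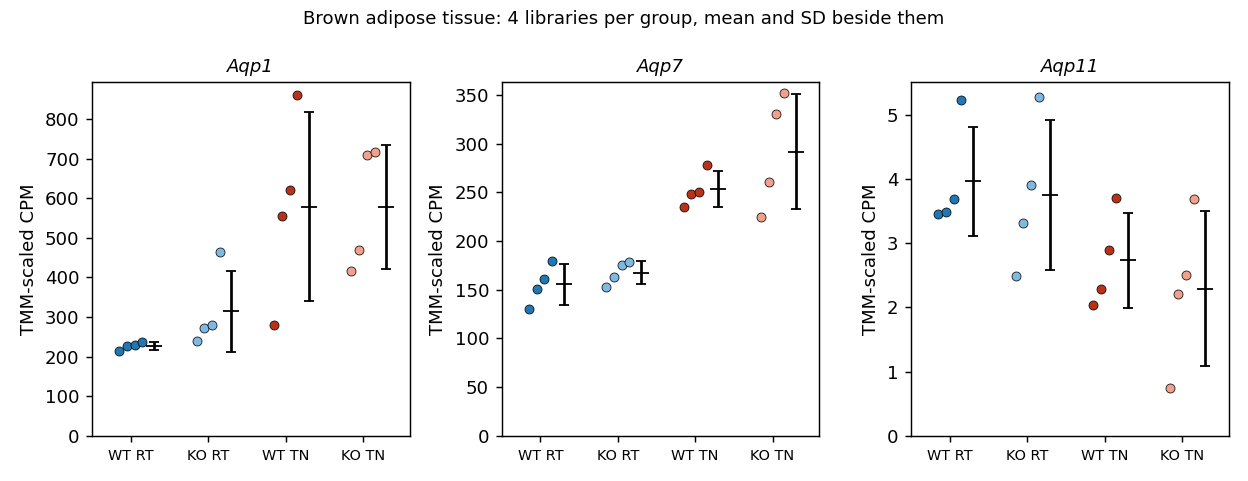
TMM-scaled CPM of Aqp1, Aqp7 and Aqp11 in BAT, with 4 libraries per group as points and the mean with SD beside them. Aqp7 does not overlap between housing temperatures in either genotype, Aqp1 overlaps in KO, and Aqp11 overlaps in both.

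Markers of endothelium moved beside Aqp1. Of the 8 endothelial markers 6 rose at TN in BAT of WT mice (32.5% of all genes called). In KO mice edgeR called 0 of them, and 1, Cldn5, had an unadjusted p under 0.05 (log2 change 1.31, adjusted p 0.126). Their summed level in WT mice was 157 to 506 CPM at RT and 352 to 1066 CPM at TN. In KO mice it was 466 to 972 CPM at RT and 775 to 1432 CPM at TN. WT TN replicate 24 was lowest of its group and KO RT replicate 9 highest of its group, both in Aqp1 and in the summed markers. WT RT replicate 12 and WT TN replicate 1 were likewise highest of their groups in both, and WT RT replicate 18 was lowest of its group in both. The sizes of the differences, and in some libraries the ranks, did not pair. WT RT replicate 12 had 506 CPM of the markers, against 157 to 189 CPM in the rest of its group, and 238 CPM of Aqp1, close to the rest. KO RT replicate 10 had 767 CPM of the markers and the lowest Aqp1 of its group. Between genotypes at RT, all 8 markers were higher in KO at an unadjusted p under 0.05 (log2 changes 0.59 to 1.61) and 0 were called by edgeR (adjusted p 0.108 to 0.221). The ratio of Aqp1 counts to endothelial marker counts was 0.848 ± 0.265 (SD, n = 4) in WT at RT and 0.796 ± 0.050 at TN, and 0.433 ± 0.120 in KO at RT and 0.647 ± 0.082 at TN. Erythroid markers, another source of Aqp1, summed to 16.2 to 474 CPM over the 16 BAT libraries. In whole tissue, a larger share of cells of a type and more RNA per cell cannot be told apart. The part of endothelium in the Aqp1 change was not tested.

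Summed brown adipocyte markers in BAT moved opposite to Aqp7, with 7170 to 11660 CPM at RT and 3196 to 6505 CPM at TN in WT, and 4 of the 5 markers called lower in each genotype. All 5 macrophage markers were called higher at TN in each genotype, with summed levels of 40.0 to 106.8 CPM at RT and 192 to 447 CPM at TN in WT. Their part in the changes of Aqp7 and Aqp1 was not tested. Skeletal muscle markers also differed between libraries. With only the BAT libraries under 500 CPM of summed muscle markers (4 in WT RT and 2 in each other group), the change of Aqp7 remained called in both genotypes. That of Aqp1 remained called in WT at 1.65, and in KO it was 0.72 (adjusted p 0.238).

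Genes on either side of the glycerol channel did not rise with Aqp7. Of 13 genes of lipolysis, glycerol phosphate metabolism and glycerolipid assembly, 6 fell in BAT of WT mice at TN and 0 rose, while 16.7% of all genes were called lower. In KO mice 6 fell and 0 rose, with 8.52% of all genes called lower. Agpat2, which acylates lysophosphatidic acid on the way to triglyceride, had a log2 change of -2.48 in WT (SE 0.32, adjusted p 2.87e-05) and -2.18 in KO (SE 0.31, adjusted p 0.000186). Gpd1 and Gpd2, the cytosolic and mitochondrial glycerol 3-phosphate dehydrogenases, fell by 1.65 and 1.66 in WT, and in KO Gpd1 fell by 1.25 (adjusted p 0.00811). Mgll, the monoglyceride lipase whose product is glycerol, fell by 0.78 in WT (adjusted p 0.000677) and by 0.64 in KO (adjusted p 0.00631). The list's median change was -0.76 in WT and -0.64 in KO, against 0.11 and 0.04 over all genes tested. The lipases Pnpla2 and Lipe were not called, with changes of -0.23 and -0.32 in WT and 0.16 and 0.02 in KO. Glycerol kinase, Gk, was not called either, at -1.13 in WT (adjusted p 0.233) and -2.08 in KO (adjusted p 0.0699).

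Of the 12 member tests for genotype in BAT 0 were called, in comparisons that called 0.0887% of all genes at RT and 0% at TN, so that the count says nothing particular to the members. In edgeR 1 of the 12, for Aqp4 at RT, had an unadjusted p under 0.05, and DESeq2 called 0 as well. The interaction of genotype and housing in BAT was called for 0 of 6 members (0% of all genes), with 0 at an unadjusted p under 0.05. Aqp11 had lower means at TN (2.74 ± 0.74 CPM in WT and 2.29 ± 1.21 CPM in KO, SD, n = 4) than at RT (3.97 ± 0.85 and 3.75 ± 1.17 CPM), but the groups overlapped. Its log2 changes were -0.54 in WT (adjusted p 0.296) and -0.71 in KO (adjusted p 0.245).

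In liver, Aqp4 was lower in KO than in WT mice at TN. The gene (ENSMUSG00000024411) lies on chromosome 18 from 15389496 to 15410982 on the minus strand, and an annotated antisense gene, AC133525.2, overlaps it, so that without strand the pair cannot be told apart. At TN, Aqp4 was 39.6, 30.0, 21.7 and 20.9 CPM in WT replicates 1, 24, 6 and 7. In KO replicates 2, 22, 4 and 5 it was 11.3, 7.83, 14.6 and 9.20 CPM. The KO libraries were all below the WT libraries, and the log2 change was -1.38 (SE 0.30, adjusted p 0.0189). It was the 1 member called of 6 tested, in a comparison that called 3.18% of all genes (1.85% lower). Without WT TN replicate 1 or KO TN replicate 22 the call was lost, at log2 changes of -1.18 and -1.26 and an adjusted p of 0.0564 in each case. Markers of leukocytes also differed in that comparison. Of 5 macrophage markers 1 was called higher in KO, with summed levels of 138 to 168 CPM in WT and 172.5 to 449 CPM in KO. Of 3 neutrophil markers tested 1 was called higher, with summed levels of 0.811 to 2.88 CPM in WT and 4.11 to 5.14 CPM in KO. Hepatocyte markers had 0 of 5 called (median log2 change -0.08). The part of these cells in the Aqp4 difference was not tested.

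At RT the difference in Aqp4 was of like size and was not called. Levels were 15.1, 17.6, 8.45 and 18.5 CPM in WT replicates 11, 12, 15 and 18. They were 5.52, 3.73, 8.77 and 3.43 CPM in KO replicates 10, 16, 19 and 9. KO replicate 19 lay just above WT replicate 15, and the other libraries did not overlap. The log2 change was -1.48 (SE 0.31, adjusted p 0.0826), with 0 of 6 members called in a comparison that called 0.0853% of all genes. Without KO RT replicate 19 it was -1.81 (adjusted p 0.0265), without WT RT replicate 15 it was -1.67 (adjusted p 0.0284), and DESeq2 called it (adjusted p 0.000887). The interaction of genotype and housing for Aqp4 was 0.09 (SE 0.43, adjusted p 0.983).

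Aqp4 was also higher at TN than at RT in liver, by a log2 change of 0.91 in WT (SE 0.30, adjusted p 0.412) and 1.01 in KO (SE 0.31, adjusted p 0.188), neither of which was called. In WT the housing groups did not overlap (18.5 CPM or less at RT, 20.9 CPM or more at TN), and in KO they did. The housing comparisons of liver called 0.0227% of all genes in WT and 0.114% in KO, and 0 members in each. Of the 12 member tests 3 had an unadjusted p under 0.05, and DESeq2 called Aqp4 in KO (1.02, adjusted p 0.0456) and no member in WT. The order of the means was KO at RT (5.36 ± 2.45 CPM, SD, n = 4), KO at TN (10.7 ± 2.95), WT at RT (14.9 ± 4.55) and WT at TN (28.1 ± 8.75). The neighbours KO at TN and WT at RT overlapped.

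**Figure D3:**
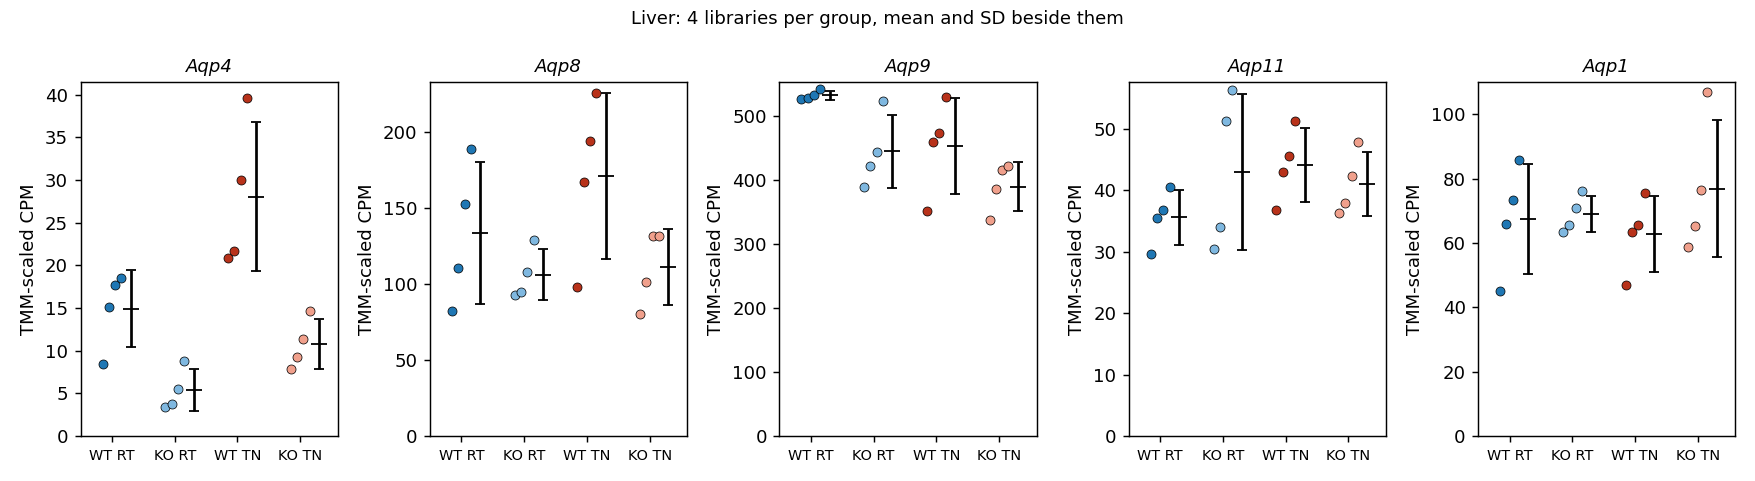
TMM-scaled CPM in liver of Aqp4, Aqp8, Aqp9, Aqp11 and Aqp1, with 4 libraries per group as points and the mean with SD beside them. Aqp4 lies lower in KO than in WT at each temperature, without overlap at TN, while most other groups overlap.

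The glycerol channel of hepatocytes, Aqp9, was 528, 534, 543 and 527 CPM in WT liver at RT, the group with the smallest spread. In KO liver at RT it was 524, 423, 389.7 and 444 CPM, each below the lowest WT library, and the log2 change of -0.26 was not called (SE 0.13, adjusted p 0.524). At TN the levels were 454 ± 74.9 CPM in WT and 390 ± 38.7 CPM in KO (SD, n = 4), and the groups overlapped.

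The water channel Aqp8 was 152.5, 110.2, 82.1 and 189 CPM in WT liver at RT. It was 92.8, 94.6, 129 and 107 CPM in KO at RT, inside the range of WT. At TN Aqp8 was 97.6, 225, 167 and 194 CPM in WT and 132, 79.8, 131 and 101 CPM in KO. The TN groups overlapped through WT replicate 1, the lowest of its group, and the log2 change of -0.62 was not called (SE 0.27, adjusted p 0.231). Without that library it was -0.82. Aqp11 had group means from 35.6 to 44.2 CPM and Aqp1 from 62.9 to 76.9 CPM in liver, all groups of each overlapping their neighbours, with no call. Interactions of genotype and housing were called for 0 of 6 members in liver (0% of all genes), 1 of which, Aqp7, had an unadjusted p under 0.05 at levels near the limit of detection. 

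Of the 12 glycerol genes that could be tested in liver, 3 fell in KO mice at TN and 0 rose, the same comparison having called 1.85% of all genes lower. Gpd2 averaged 36.7 ± 7.79 CPM in KO against 71.6 ± 2.05 CPM in WT (SD, n = 4), a log2 change of -0.96 (SE 0.15, adjusted p 0.0026). Agpat2 fell by 0.67 (adjusted p 0.0115) and Gpd1 by 0.62 (adjusted p 0.0492). The enzymes that turn glycerol towards glucose, Gk, Fbp1 and G6pc, were not called in liver. The list's median change at TN was -0.48, against 0.05 over all genes tested.

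In eWAT no member was called in any of the 5 comparisons within the tissue. The genotype comparisons called 4.34% of all genes at RT and 0.586% at TN, and 0 of 14 member tests, of which 3 had an unadjusted p under 0.05. The housing comparisons called 0% of all genes in WT and 1.74% in KO, and again 0 of 14 member tests, with 2 at an unadjusted p under 0.05. Interactions of genotype and housing were called for 0 of 7 members (0% of all genes), with 0 at an unadjusted p under 0.05. DESeq2 called 1 of these tests, Aqp1 at RT (log2 change 0.61, adjusted p 0.044).

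Aqp1 in eWAT at RT was 239, 199.8, 161 and 114 CPM in WT replicates 12, 13, 15 and 18. In KO replicates 10, 16, 19 and 9 it was 179, 396, 210.3 and 287 CPM. The groups overlapped, KO replicate 16 was the highest eWAT library, and the log2 change was 0.59 (SE 0.22, adjusted p 0.162). Without that library it was 0.36. KO replicate 16 also had the highest summed endothelial (744 CPM) and erythroid (488 CPM) markers of the eWAT libraries. At RT, summed endothelial markers were 237 to 693 CPM in WT and 299 to 744 CPM in KO eWAT. The part of these cells in the Aqp1 difference was not tested. At TN, levels were 194 ± 22.2 CPM in WT and 212 ± 8.81 CPM in KO (SD, n = 4). The groups overlapped, at 174 to 215 CPM in WT and 201 to 220.2 CPM in KO. Housing changed Aqp1 in eWAT by a log2 value of 0.12 in WT (adjusted p 0.991) and -0.34 in KO (adjusted p 0.472).

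The adipocyte glycerol channel Aqp7 in eWAT was 176, 152, 210.5 and 150.3 CPM in WT at RT and 118, 140.0, 129.5 and 158 CPM in KO at RT. The lowest KO libraries lay below all WT libraries and the highest did not, and the log2 change was -0.33 (SE 0.15, adjusted p 0.261). Housing changed Aqp7 in eWAT by a log2 value of -0.08 in WT (SE 0.15, adjusted p 0.991) and 0.15 in KO (SE 0.15, adjusted p 0.69). Of the 13 glycerol genes 1 rose in KO eWAT at RT, Gpd2 (79.0 ± 19.1 CPM against 35.9 ± 6.23 CPM in WT, log2 change 1.14, adjusted p 0.00402). Gpd2 was also the 1 gene of the list that fell with TN in KO eWAT (-0.78, adjusted p 0.0457).

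Aqp11 in eWAT of WT mice was 6.04, 4.28, 4.21 and 8.16 CPM at RT (replicates 12, 13, 15 and 18) and 1.44, 4.11, 2.996 and 2.69 CPM at TN (replicates 23, 6, 7 and 8). These groups did not overlap, and the log2 change of -1.01 was not called (SE 0.32, adjusted p 0.44). In KO mice Aqp11 was 6.82 ± 1.70 CPM at RT and 4.96 ± 1.35 CPM at TN (SD, n = 4). At TN the KO mean lay above that of WT (2.81 ± 1.10 CPM), with overlap and a log2 change of 0.82 (SE 0.32, adjusted p 0.264).

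**Figure D4:**
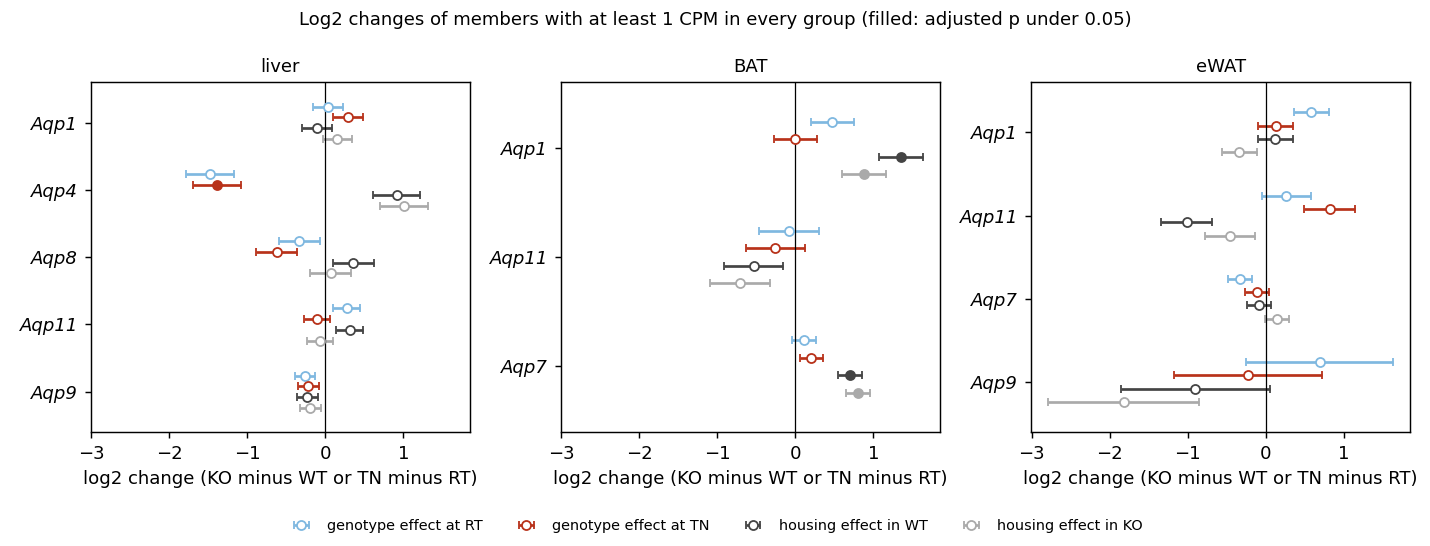
Log2 changes with standard errors from the edgeR fit of each tissue, for members with at least 1 CPM in every group of that tissue, by genotype (KO minus WT) and housing (TN minus RT). Filled points have an adjusted p under 0.05 and are found for Aqp4 in liver at TN and for Aqp1 and Aqp7 in BAT.

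Whether housing acted differently on the depots was tested directly as the TN minus RT change in BAT minus that in eWAT. In WT mice 1 of 7 members was called, in a comparison that called 13.9% of all genes. This was Aqp1, with a difference of 1.24 on the log2 scale (SE 0.36, adjusted p 0.0158). Tissues share some replicate numbers, and with the replicate number as a block the call was lost (1.04, adjusted p 0.255). It was also lost without eWAT WT RT replicate 12 (1.06, adjusted p 0.0512) and without BAT WT TN replicate 1 (0.98, adjusted p 0.0695). In KO mice the difference for Aqp1 was 1.22 (SE 0.36, adjusted p 0.0512), and 0 of 7 members were called where 2.88% of all genes were. There 2 members, Aqp1 and Aqp8, had an unadjusted p under 0.05, and DESeq2 called 1, Aqp1. For Aqp7 the difference between depots was 0.79 in WT (SE 0.61, adjusted p 0.441) and 0.67 in KO (SE 0.61, adjusted p 0.675). This fit gives each gene 1 estimate of spread, shared with the liver libraries, where Aqp7 was at most 1.46 CPM. In the fits of single tissues its housing changes had an SE of 0.15 in BAT and in eWAT. The test over all 48 libraries therefore cannot decide whether its rise in BAT differed from the change in eWAT.

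Liver-type aquaporins in fat varied with transcripts of hepatocytes. In eWAT, Aqp9 was 8.62 to 33.1 CPM in the 5 libraries with summed hepatocyte markers of 1000 CPM or more. It was 1.55 to 7.66 CPM in the other 11 libraries. KO RT replicate 16 was highest in both, at 7.87% of the liver mean for Aqp9 and 5.98% of the liver mean for the markers, both per library total. WT RT replicate 18, the library with 882 CPM of epididymis markers, had 3.81% for Aqp9 and 1.89% for the markers. Aqp8 in eWAT was 1.83 to 5.23 CPM in the same 5 libraries and at most 1.06 CPM in the others. In BAT, KO TN replicate 2 was highest in both, with 11.6 CPM of Aqp9 (2.99% of the liver mean) and 2251 CPM of hepatocyte markers (3.22% of the liver mean). The split was less clean there, since Aqp9 was 1.89 to 11.6 CPM in the 5 BAT libraries with 500 CPM or more of the markers and 0 to 1.98 CPM in the other 11. These thresholds were set after the values were seen, and the part of hepatocyte transcripts in Aqp8 and Aqp9 of fat was not tested.

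Aqp4 in BAT varied with transcripts of skeletal muscle, a tissue that expresses it. The 6 BAT libraries with summed muscle markers of 500 CPM or more held 0.631 to 6.09 CPM of Aqp4, and the other 10 held at most 0.340 CPM. All 4 WT RT libraries had no count of Aqp4, and their summed muscle markers were at most 336 CPM. The limit that a count of 0 allows there is 0.156 CPM. Aqp4 was not called by edgeR in BAT, with an adjusted p of 0.09 for housing in WT, where DESeq2 called it beside Aqp1 and Aqp7. The part of muscle in its level was not tested. Trace counts of Aqp7 in liver were 0 in all WT RT libraries and 0.180 to 0.996 CPM in all WT TN libraries (adjusted p 0.40), with up to 1.46 CPM in KO RT replicate 19. The gland channel Aqp5 in eWAT was 0 to 0.176 CPM in WT and 0.273 to 0.911 CPM in KO at RT, without overlap (adjusted p 0.299), and 0 to 1.77 CPM at TN.

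**Figure D5:**
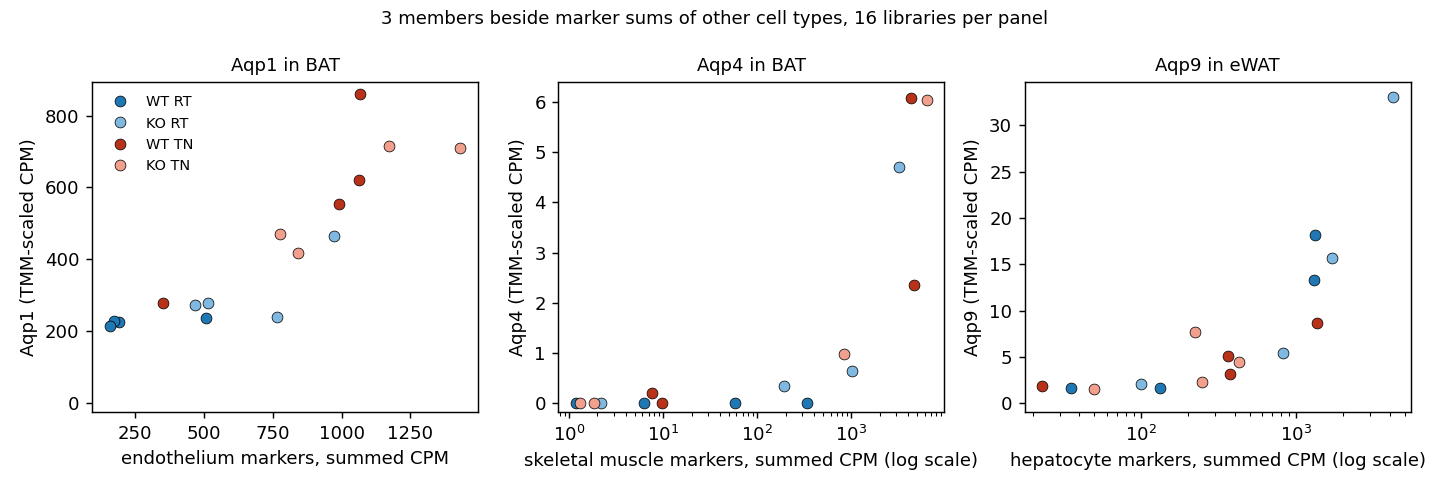
Members (TMM-scaled CPM, y axes) beside summed markers of other cell types (CPM of the library total, x axes, log scale for muscle and hepatocyte) in 16 libraries per panel, colours giving genotype and housing. Aqp4 in BAT is higher where muscle markers pass 500 CPM, and Aqp9 in eWAT where hepatocyte markers pass 1000 CPM. Aqp1 in BAT is mostly higher where endothelial markers are higher. Exceptions are WT RT replicate 12 (506 CPM of markers, 238 CPM of Aqp1) and KO RT replicate 10 (767 and 239.6 CPM).

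Genes most like each member were sought by Pearson's r of log2 CPM over the 16 libraries of the tissue where it was highest, as a description. The libraries share housing and genotype groups and cell make-up, so genes that differ between groups will be alike. Nearest to Aqp7 in BAT were Gpx3 (r = 0.922), Os9 (0.921) and Crip2 (0.912), of 12304 genes. Nearest to Aqp1 in BAT were Ppp1r18 (0.962), Vsir (0.953) and Cdkn1b (0.952). In liver, among 11837 genes, Smpd3 (0.868) and Aldh1a7 (0.852) came nearest to Aqp4. Pgd (0.905), which makes NADPH in the pentose phosphate pathway, Acsl5 (0.862), a fatty acid activating enzyme, and Echdc1 (0.854) came nearest to Aqp8. Those nearest to Aqp9 were Mtfr1l (0.850), Cyp2a12 (0.848) and Stx12 (0.839), and those nearest to Aqp11 were As3mt (0.881), Nmrk1 (0.870) and Paip2 (0.858).

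The rest of the family was close to absent. Of Mip, Aqp2, Aqp6 and Aqp12, only Aqp2, the vasopressin-regulated channel of the kidney, had enough counts to be tested, in BAT and eWAT. In BAT of KO mice it was 0.147 to 1.39 CPM at RT and had no count in any TN library, where the limit of 3 counts is 0.0871 CPM. In WT BAT at TN, 1 library had a count, so Aqp2 passed the filter on low counts mainly through the RT libraries. Its call as lower at TN in KO (edgeR, adjusted p 0.012) is therefore no independent evidence of a fall. That comparison called 15.2% of all genes. In WT it was not called.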

How the data were processed

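The authors deposited raw counts per gene for each of the 48 libraries, with no normalization. Per the labels' protocols, total RNA of snap-frozen tissue was made into NEBNext Ultra libraries and read in paired-end mode. The submitters' processing notes name fastp, STAR 2.6.1d, featureCounts 1.5.0-p3 and GRCm38 (mm10), while the annotation release and strand setting are not given in the sources used here. Symbols came from a gene table that named 91.8% of the 56748 identifiers. Each file held 1 library, and no 2 libraries of the same group agreed within sampling noise, the pairs tested.

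With edgeR 4.0.16 under R 4.3.3, 1 fit per tissue took its 16 libraries and 1 fit across tissues took all 48. Each used TMM scaling, the filterByExpr filter at 10 counts, a mean for each group and the robust quasi-likelihood test. Two-sided p-values had Benjamini-Hochberg adjustment across every gene of the fit at a threshold of 0.05, so that a call depends on how many other genes changed. Groups of a tissue share no replicate number. Alternatives were DESeq2 1.42.0, scaling by RLE, keeping every gene with a count, keeping genes that reach 1 CPM in 4 libraries, fitting just the 8 libraries of a comparison, each library left out in turn and, across tissues, the replicate number as a block. Leaving out BAT libraries with muscle or hepatocyte markers of 500 CPM or more was chosen after seeing the data. Levels are CPM of effective library size within a tissue, so levels of different tissues are on separately scaled axes, while the tissue tests use 1 scaling. Marker sums are CPM of library totals. Intervals and limits from counts cover counting error only.

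The members, the glycerol list and the marker lists were chosen with earlier results of these data known. Named besides the 8 members were up to 4 called genes per list and comparison, those with the smallest adjusted p, and the 3 genes with the highest r to each member, of which 1 is not reported here. Pnpla2, Lipe, Gk, Fbp1, G6pc and Cldn5 were named after their values were seen. The fitting was tested on simulated counts. Sequences are RefSeq promoter windows.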

Additional observations from a re-analysis of the deposited data

Results flagged for a closer look

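In 5 of the 59 groups of 4 libraries in which a member averaged at least 1 CPM, 1 library stood far from the other 3, the gap taking more than Dixon's 95% share of the range. Chance alone gives about 1 such group in 20. Aqp4 in BAT was 4.70 CPM in KO RT replicate 14 and 6.05 CPM in KO TN replicate 2, the libraries with the most skeletal muscle transcripts of their groups (3213 and 6294 CPM of summed markers). Aqp9 in BAT was 11.6 CPM in KO TN replicate 2, which also had the most hepatocyte transcripts of the BAT libraries (2251 CPM). Aqp8 in eWAT was 4.53 CPM in WT TN replicate 8, where hepatocyte markers summed to 1350 CPM, the most in its group. Aqp11 in BAT was 5.23 CPM in WT RT replicate 15, against 3.46 to 3.68 CPM in the other libraries of the group. The part of these transcripts in the values was not tested.

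The housing change of Aqp1 in WT mice differed between BAT and eWAT by 1.24 on the log2 scale (edgeR, adjusted p 0.0158), and the call was lost with the replicate number as a block (1.04, adjusted p 0.255). In eWAT the change was 0.12 and in BAT 1.35, each from the fit of its tissue.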

How the results depend on the processing

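No change of direction was found for any value recomputed under the alternatives. The changes of Aqp7 in BAT were called under all 23 alternatives in each genotype (0.63 to 0.79 in WT, 0.70 to 0.91 in KO on the log2 scale), as was that of Aqp1 in WT (1.00 to 1.65). Counts of members called moved by over 1.5 times in these comparisons. With single libraries left out, the count ran from 0 to 1 in liver for genotype at RT and at TN, from 1 to 2 in BAT for housing in KO, and, for the housing difference between BAT and eWAT, from 1 to 2 in WT and from 0 to 1 in KO. DESeq2 gave 1 in liver for genotype at RT and for housing in KO, 1 in eWAT for genotype at RT, and 2 in WT and 1 in KO for the housing difference between depots. Keeping genes that reach 1 CPM in 4 libraries gave 2 and 1 for that difference, the second member in WT being Aqp4, and RLE scaling gave 1 in KO. In BAT, DESeq2 called 981 genes for genotype at RT where edgeR called 16, and in liver 203 where edgeR called 15. The cause was not tested.

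Tissues of a genotype and housing group share some replicate numbers. Deviations of same-numbered libraries from their group means had correlations of -0.359 to 0.211 (median 0.025). Of these, 7 of 35 were over 0.1, against 25 of 157 for different numbers. This check cannot exclude that a number marks 1 animal, since deviations in different tissues of an animal need not be alike. Each number occurs in a single genotype and housing group. The main tissue tests treated the libraries as independent, which was not shown. With the replicate block, 0 members were called for the housing difference in WT (Aqp1 1.04, adjusted p 0.255), and Aqp9 was not called between BAT and eWAT (-1.26, adjusted p 0.213). The other tissue calls named did not change under the block. Genes under about 1 CPM rested on few counts, where single libraries set the value.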
